A study of Homo sapiens with 54 samples.

Results

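The ID genes ID1, ID2, ID3 and ID4 and the feedback genes SMAD6, SMAD7, BAMBI and SKIL were followed in 6 established human cancer cell lines grown with or without a kinase inhibitor. The genes were taken by symbol, and all 8 were found among the 33119 genes of the count tables. SW48 and SW620 are colorectal cancer lines, NCI-N87 and MKN-45 stomach cancer lines, and BT-20 and BT-474 breast cancer lines. RNA was counted from transcript 3′ ends in 54 libraries, which form 18 groups of 3 in 2 sets. Set 1 holds SW48 and SW620 as controls and with trametinib, which blocks the kinases MEK1 and MEK2. Set 2 holds SW48 and SW620 as controls, with trametinib or with palbociclib, which blocks CDK4 and CDK6, kinases of the cell cycle. Set 2 also holds NCI-N87, MKN-45, BT-20 and BT-474 as controls and with afatinib, which binds receptors of the ERBB family irreversibly. All groups share DMEM with serum, and the labels name no added BMP or TGF-beta ligand, no dose and no exposure time.

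ID proteins have a helix-loop-helix but no DNA-binding basic region, so they bind E proteins and keep them off DNA, and they are known for holding cells in a proliferating, less differentiated state. BMP ligands bind receptor kinases that phosphorylate SMAD1, SMAD5 and SMAD9, and these, with SMAD4, switch on ID genes directly. Signals of BMP or TGF-beta ligands switch on their own brakes. SMAD6 acts mainly on BMP receptors, SMAD7 on BMP and TGF-beta receptors, and BAMBI is a receptor-like protein without a kinase. SKIL, also called SnoN, holds SMAD complexes in a repressed state. In the intestine, BMP signalling is known to be high in differentiated cells and low at the crypt base.

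The libraries held 4063382 to 10622670 counts in set 1 and 3401565 to 12806042 in set 2. A level is given as CPM, counts divided by the scaled library size, and since a 3′ count is not divided by length, levels are compared between samples of a gene and never between genes. The sets were scaled apart, and tests were made only within a set. Marker levels, sums and medians given below put libraries of set 1 beside controls of set 2 without a test. A floor of 3 counts was 0.261 to 0.796 CPM in set 2 and covers counting error only. The labels do not say whether the 3 libraries of each group are separate cultures, and p-values therefore measure spread among these libraries that may be technical. In bulk RNA, fewer cells of a kind and less RNA per cell cannot be told apart. Of the lines' defining markers, CDX1 was at 0 in the controls of both colorectal lines, VIL1 was at 0.203 CPM in SW48 of set 2 and CLDN18 at 0.186 CPM in NCI-N87. SW48 controls of set 2 held 96.8 CPM of CDX2, but those of the stomach lines NCI-N87 and MKN-45 held 122 and 65.2 CPM, so CDX2 does not set the colorectal lines apart. CDH17, another colorectal marker, was at 110 CPM in NCI-N87, 7.18 in SW48 and 1.04 in SW620, while VIL1 was at 58.4 CPM in SW620 and 30.2 in NCI-N87. TFF1, a stomach marker, was at 337 CPM in BT-474, 45.4 in MKN-45 and 1.05 in NCI-N87. GATA3, a breast marker, was at 102 CPM in BT-20 and 290.0 CPM in BT-474. The other breast markers were mixed, given here for BT-20 and then BT-474. TFAP2B was at 0.0459 and 0.321 CPM and ESR1 at 7.17 and 25.6 CPM. KRT5 was at 31.5 and 0.274 CPM, beside 10.6 CPM in MKN-45. TRPS1 was at 25.8 and 182 CPM, beside 42.1 CPM in NCI-N87. TFAP2A was at 234 and 252 CPM, beside 129 CPM in SW48 of set 2. The third SW620 control of set 1 stood apart, with a mean correlation of 0.850 to the others of its group, against 0.910 and 0.911 for those. Genes that mark BT-474 and are near 0 in SW620, both judged in set 2 controls, summed in it to 22.0% of their BT-474 level. For each other line the median over its marker genes was also taken, and the highest of these medians was 1.17%. In the other 2 controls of the group the highest medians were 1.45% and 1.29%. The highest sum for any other line was 18.3% in the other libraries of set 1 and 4.80% in set 2. In the libraries with these sums the highest medians were 1.17% and 0.140%. The sums of set 1 put its libraries against set 2 controls. Whether they hold reads of another line or a difference of the line between sets was not tested, nor was their part in the results. Controls of the same line had unlike levels of some markers in the sets. ERBB2 was at 988 CPM in SW48 controls of set 1 and 101 CPM in those of set 2. In SW620 controls CDX2 was at 2.76 and 34.2 CPM and GATA3 at 77.4 and 6.28 CPM. Results of the same drug in both sets are therefore given side by side and were not tested against each other.

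The stretches just before the start of 4 genes are shown because of their changes in SW48 with trametinib. ID1, ID3 and SMAD6 rose in both sets, while SKIL fell in set 2 and was not called in set 1. ID2 and ID4 also rose in both sets, and their stretches are not shown. Each is the 250 bases upstream of the gene's start from RefSeq on GRCh38.p14, read along the gene's strand, at chr20:31605039-31605288 (plus strand, ID1), chr1:23559502-23559751 (minus strand, ID3), chr15:66701986-66702235 (plus strand, SMAD6) and chr3:170357465-170357714 (plus strand, SKIL). Capitals mark matches to the letters searched, of which ID1 has none: GTCTAGAC, a palindrome of SMAD-binding letters; GGCGCC, a GC-rich SMAD box; TGACGTCA, the cAMP response palindrome; and CAGAC on either strand, the core SMAD-binding letters.
ID1: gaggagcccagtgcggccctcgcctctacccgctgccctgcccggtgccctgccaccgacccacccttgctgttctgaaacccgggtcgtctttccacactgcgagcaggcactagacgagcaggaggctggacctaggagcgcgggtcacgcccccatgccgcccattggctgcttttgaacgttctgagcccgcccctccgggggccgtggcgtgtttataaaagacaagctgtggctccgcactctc
ID3: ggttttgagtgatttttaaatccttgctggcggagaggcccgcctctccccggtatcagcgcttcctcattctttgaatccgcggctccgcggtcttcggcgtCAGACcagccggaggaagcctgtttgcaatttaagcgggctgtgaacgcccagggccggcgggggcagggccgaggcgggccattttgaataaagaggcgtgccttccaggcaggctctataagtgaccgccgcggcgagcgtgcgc
SMAD6: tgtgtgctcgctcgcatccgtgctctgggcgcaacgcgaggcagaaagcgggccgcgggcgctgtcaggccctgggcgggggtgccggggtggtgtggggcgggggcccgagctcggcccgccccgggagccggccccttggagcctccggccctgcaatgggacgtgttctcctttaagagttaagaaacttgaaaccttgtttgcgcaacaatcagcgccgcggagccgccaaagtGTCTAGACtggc
SKIL: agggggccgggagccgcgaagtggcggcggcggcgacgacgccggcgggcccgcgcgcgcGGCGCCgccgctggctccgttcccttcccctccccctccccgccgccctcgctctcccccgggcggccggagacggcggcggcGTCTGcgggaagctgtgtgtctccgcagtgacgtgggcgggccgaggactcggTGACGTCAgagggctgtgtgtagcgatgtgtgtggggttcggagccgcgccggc
GTCTAGAC stood 12 to 5 bases before the start of SMAD6 and occurred in 0.182% of 35116 RefSeq windows of this length. TGACGTCA stood 54 to 47 bases before SKIL and occurred in 1.65% of windows, and GGCGCC, found in SKIL and 3 times in BAMBI, in 16.4%. CAGAC occurred in 38.0% of windows and in those of ID3, ID4, SMAD7, BAMBI and SKIL, while the windows of ID1 and ID2 held none of the 4. A match is a string of letters, not a measured binding site.

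In untreated cells of set 2, SW48 had the highest mean level of 5 of the 8 genes. All 8 differed among the 6 lines by edgeR's quasi-likelihood test, as did 97.1% of all genes tested. ID1 (chromosome 20, 31605289 to 31606510 on hg38) was at 333, 309 and 281 CPM in SW48 and at 129.5, 289.6 and 297 CPM in NCI-N87. These groups overlapped and did not pass (adjusted p = 0.17). BT-20, MKN-45, BT-474 and SW620 followed at mean levels of 125, 121, 98.3 and 90.4 CPM, and no neighbouring pair among these 4 passed. ID2 (chromosome 2, 8682056 to 8684461) was the most graded, from 559.7 ± 23.7 CPM (SD, n = 3 here and below) in SW48 through BT-474 (273 CPM), SW620 (139), NCI-N87 (94.0) and MKN-45 (37.2) to 28.4 ± 3.51 CPM in BT-20, and each of its 5 neighbouring steps passed. These orders hold for set 2 only. In set 1, scaled apart, SW620 controls held 34.2, 45.1 and 12.1 CPM of ID2, and the sets were not tested against each other. ID3 (chromosome 1, 23557926 to 23559501) split the lines most widely among the ID genes seen in every line. It was at 219 ± 38.2 CPM in SW48, 69.0 ± 4.10 in BT-474 and 40.8 ± 2.81 in BT-20. It was far lower in NCI-N87 (4.67 ± 1.56 CPM), MKN-45 (2.81 ± 1.93) and SW620 (1.67 ± 0.172), whose neighbours did not pass (adjusted p = 0.0502 and 0.077). The SW48 mean of ID3 was 131 times that of SW620, where the 3 controls held 17, 13 and 19 counts. ID4 (chromosome 6, 19837370 to 19842197) was seen mainly in the breast lines, at 5.92 ± 1.93 CPM in BT-474 and 3.65 ± 0.344 in BT-20 (adjusted p = 0.15). SW48 controls held 8, 9 and 6 counts of ID4, NCI-N87 3, 0 and 1, MKN-45 0, 0 and 1 and SW620 0 in each library. A gene antisense to ID4 overlaps it, another lies antisense to ID2, and the strand setting of the counting is not given in the sources used here.

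Among the brakes, SMAD6 (chromosome 15, 66702236 to 66782849) was highest in SW620 at 46.6 ± 4.38 CPM. MKN-45 (28.0 CPM), NCI-N87 (17.2), SW48 (10.7), BT-474 (9.60) and BT-20 (2.76 ± 0.363) followed, and of the 5 steps only that from SW48 to BT-474 did not pass. SMAD7 (chromosome 18, 48919853 to 48950965) was at 34.9 ± 2.54 CPM in SW48 and 8.89 ± 1.91 in BT-474. The other 4 lines had mean SMAD7 levels of 2.53 to 4.49 CPM and their neighbours did not pass. BAMBI (chromosome 10, 28677521 to 28682932) was at 624, 640.3 and 639 CPM in SW48 and at 11.9, 9.09 and 13.6 CPM in MKN-45. Between them, BT-474 (101 CPM), BT-20 (99.9) and SW620 (91.5) had mean levels whose neighbours did not pass, and NCI-N87 (66.3) was lower than SW620 (adjusted p = 0.035). SKIL (chromosome 3, 170357715 to 170396849) was highest in NCI-N87 at 139 ± 15.01 CPM, then MKN-45 (104), BT-20 (96.2), SW620 (69.5), SW48 (31.2) and BT-474 (20.5 ± 1.83), and only the step from MKN-45 to BT-20 did not pass. Over the 8 genes 24 of 40 neighbouring steps passed. Between 59.8% and 70.7% of all genes passed in each of the 15 pairs of lines, a share that cannot be set against these steps, since neighbours in a gene's own order are its smallest differences.

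**Figure D1:**
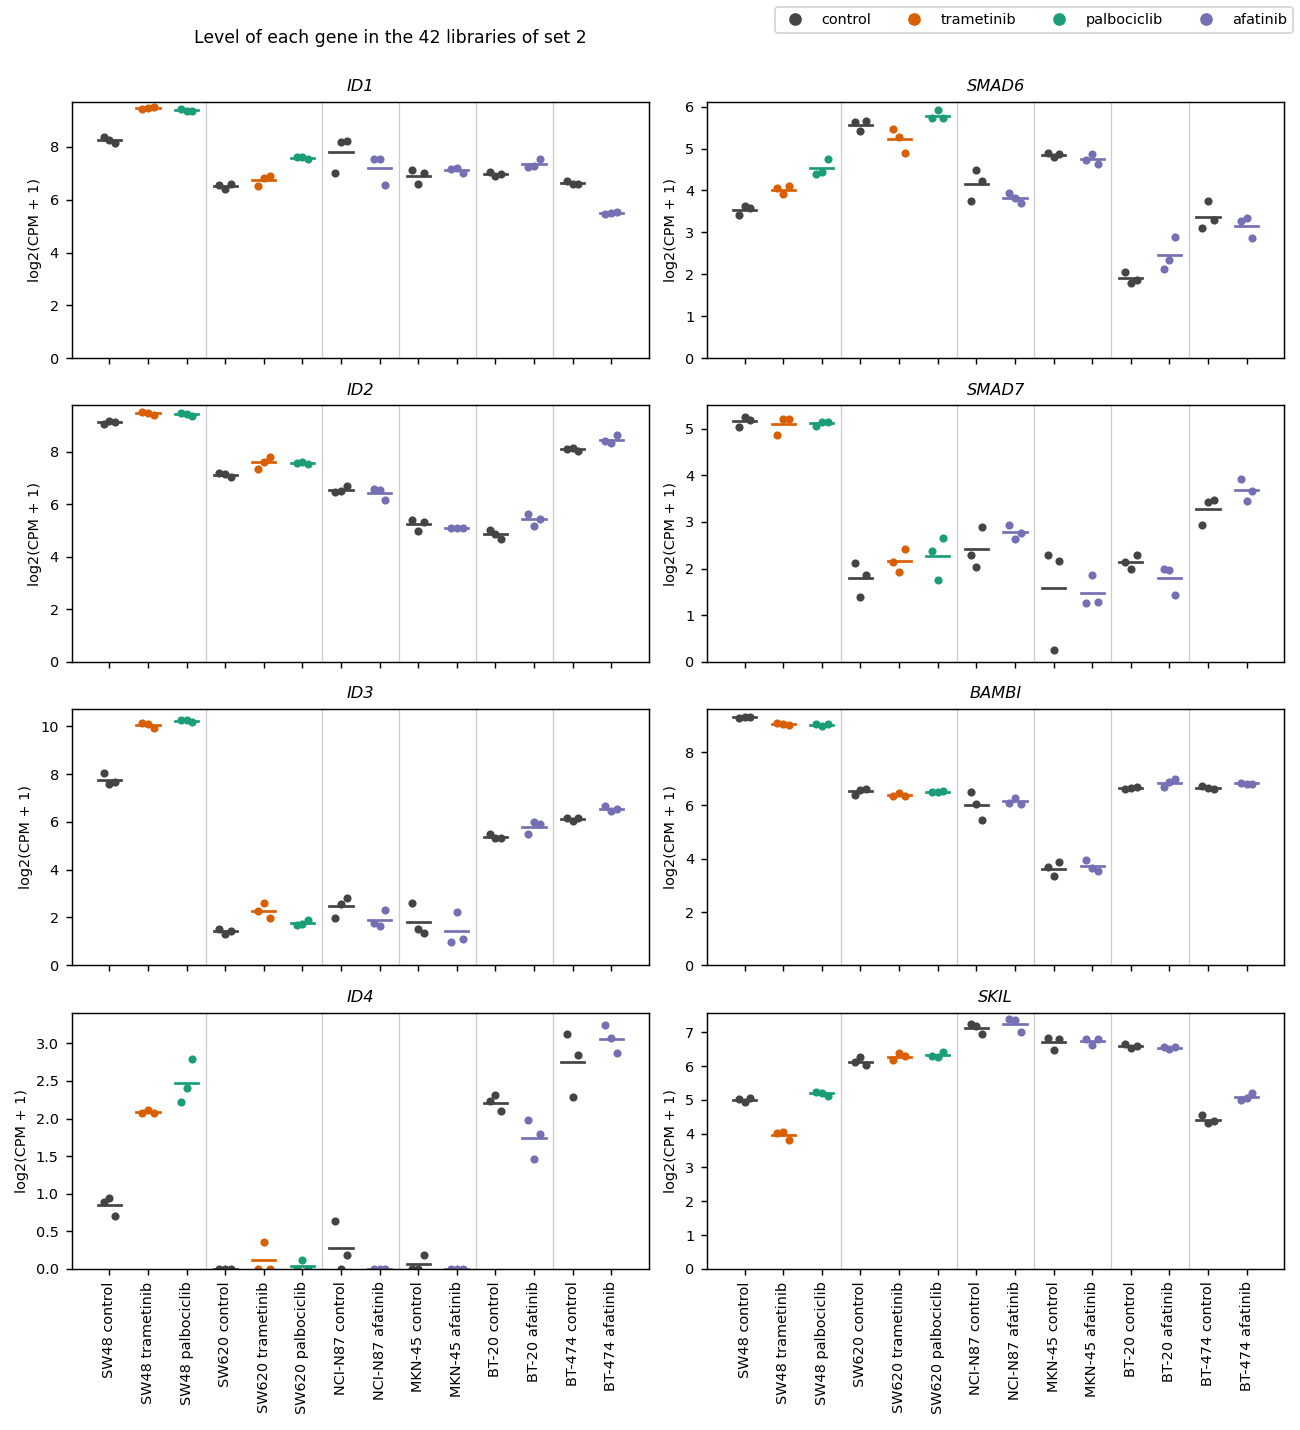
Levels of the 8 genes in the 42 libraries of set 2, as log2 of CPM plus 1, by line and drug. Points are libraries and bars the mean of 3. Among controls SW48 carries the highest ID1, ID2, ID3, SMAD7 and BAMBI, and SKIL is at 13.1 to 15.6 CPM in SW48 with trametinib, the lowest of the 14 groups.

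With trametinib, SW48 cells had more RNA of all 4 ID genes and of SMAD6 in both sets, and less SKIL in set 2. In set 1, 5 of the 8 genes rose and none fell, where 35.4% of 12235 genes tested were called (16% higher and 19.4% lower). In set 2, 5 rose and 2 fell, where 60.1% of 12688 genes were called (30.1% higher and 30.1% lower). The median log2 change of the 8 genes was 0.66 in set 1 and 0.42 in set 2, beside 0.0057 and 0.0078 over all genes tested. DUSP6, an ERK phosphatase read as a check of MEK output, fell, with log2 changes of -3.65 in set 1 and -2.496 in set 2.

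ID3 went from 263, 194 and 199.9 CPM in the controls of set 2 to 1122, 1080.4 and 981 CPM with trametinib, and in set 1 from 397, 406 and 360.0 to 1012, 994 and 1061 CPM. Every treated library lay far above every control of its set. The log2 change of ID3 was 2.26 in set 2 (SE 0.101, adjusted p = 1.4e-09 by edgeR's quasi-likelihood test) and 1.41 in set 1 (SE 0.077, adjusted p = 1.1e-05). ID1 went from 333, 309 and 281 to 699.7, 718 and 725 CPM in set 2 (1.20, SE 0.065, adjusted p = 9.7e-09) and from 481, 482 and 453 to 774, 737 and 838 CPM in set 1 (0.74, SE 0.076, adjusted p = 2.6e-04). These groups were also far apart. ID2 went from 535, 582 and 563 to 739.6, 722 and 683 CPM in set 2 (0.33, SE 0.058, adjusted p = 2.6e-04) and from 575, 542 and 627 to 764, 799 and 1041 CPM in set 1 (0.59, SE 0.123, adjusted p = 0.0075). ID2 thus gave the smallest log2 change of the 4 ID genes in each set, without overlap, and its set 1 call was lost when every group of the set was fitted at once (adjusted p = 0.29). ID4 rested on few reads, with 8, 9 and 6 counts in the controls and 31, 30 and 31 with trametinib in set 2 (1.99, SE 0.318, adjusted p = 1.4e-04). In set 1 its counts were 19, 21 and 26 and then 44, 38 and 40 (1.33, SE 0.297, adjusted p = 0.010), a call also lost with all groups in 1 fit (adjusted p = 0.099).

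The brakes did not move together. SMAD6 went from 6.21, 3.69 and 4.86 to 14.6, 13.3 and 15.7 CPM in set 1 (1.58, SE 0.275, adjusted p = 0.0032) and from 9.71, 11.4 and 10.9 to 15.6, 14.02 and 16.1 CPM in set 2 (0.50, SE 0.129, adjusted p = 0.0050), with no overlap in either. SMAD7 was at 28.3, 26.8 and 26.9 CPM in the controls and 30.6, 35.4 and 51.5 with trametinib in set 1 (0.53, adjusted p = 0.075), and passed there without the first trametinib library (0.68, adjusted p = 0.038). In set 2 SMAD7 was at 32.1, 37.1 and 35.4 and then 28.2, 36.1 and 36.1 CPM (-0.080, 95% interval -0.31 to 0.15), with overlap. BAMBI fell in set 2 from 624, 640.3 and 639 to 545, 527 and 513 CPM (-0.28, SE 0.052, adjusted p = 4.5e-04), a small step without overlap that was lost with all groups in 1 fit (adjusted p = 0.091). In set 1 BAMBI overlapped between groups (-0.065, adjusted p = 0.59). SKIL went from 31.5, 29.9 and 32.3 to 15.2, 15.6 and 13.1 CPM in set 2 (-1.11, SE 0.1001, adjusted p = 9.5e-07), with no overlap. In set 1 SKIL was at 47.5, 44.9 and 44.6 CPM in the controls and 43.0, 49.4 and 48.9 with trametinib (0.055, 95% interval -0.21 to 0.32). Those groups overlapped, and the difference between sets was not tested.

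Beside these results, the summed level of 8 markers of blood, vessel and connective tissue cells was 13.1 to 14.7 CPM in the SW48 controls of set 2 and 41.2 to 46.5 CPM with trametinib. In set 1 the sums were 9.71 to 21.1 and 63.2 to 85.6 CPM. PTPRC, CD3E and PECAM1, markers of leukocytes, T cells and endothelium, each stayed at or below 5.70 CPM in all libraries. The share of counts from mitochondrial ribosomal RNA was 0.970% to 1.60% in the SW48 controls of set 2 and 2.25% to 3.33% with trametinib. The part of either in the results was not tested.

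**Figure D2:**
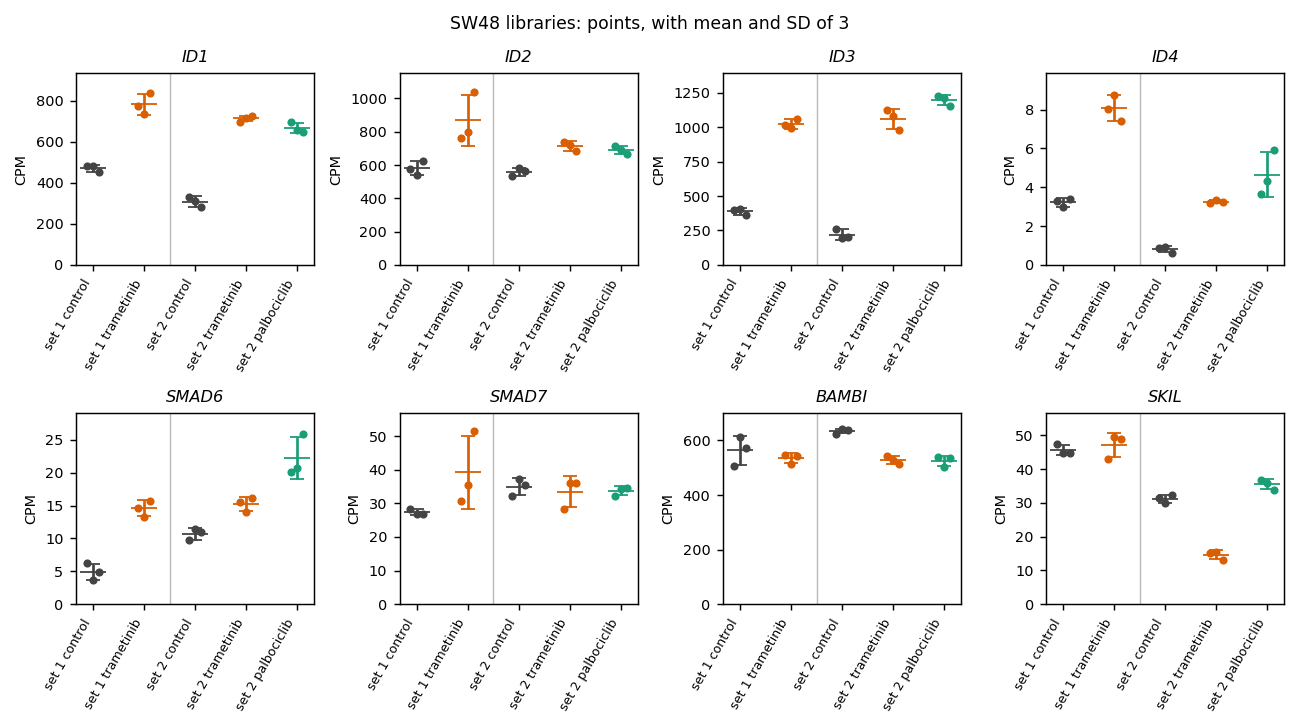
CPM of the 8 genes in the 15 SW48 libraries of both sets, with points for libraries and bars for the mean and SD of 3. In set 2 ID3 is at 194 to 263 CPM in controls, 981 to 1122 with trametinib and 1154 to 1227 with palbociclib, and SKIL drops to 13.1 to 15.6 CPM with trametinib.

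With palbociclib, SW48 cells also had more RNA of the 4 ID genes and of SMAD6. Of the 8 genes 5 rose and 1 fell, where 57.5% of 12690 genes were called (28.3% higher and 29.2% lower), and their median log2 change was 0.68 beside 0.0061 over all genes. The trametinib and palbociclib comparisons of set 2 share their control libraries. ID3 reached 1227, 1212 and 1154 CPM with palbociclib (2.45, SE 0.094, adjusted p = 5.0e-11), ID1 698, 657 and 649 CPM (1.12, SE 0.068, adjusted p = 6.0e-09) and ID2 714, 688 and 665 CPM (0.30, SE 0.06, adjusted p = 5.4e-04). ID4 held 34, 40 and 51 counts (2.51, SE 0.359, adjusted p = 3.1e-05). All treated libraries of these genes lay above all controls. SMAD6 went to 20.1, 20.6 and 25.9 CPM (1.05, SE 0.140, adjusted p = 1.5e-05), also without overlap. BAMBI fell to 538, 503 and 534 CPM (-0.27, SE 0.057, adjusted p = 8.6e-04), a call lost with all groups in 1 fit (adjusted p = 0.097). SKIL was at 36.9, 36.0 and 33.9 CPM (0.19, adjusted p = 0.068), above all controls without passing, and SMAD7 overlapped with controls (-0.047, 95% interval -0.24 to 0.14). Of the readouts, DUSP6 fell (-0.76 on the log2 scale), and so did CCND1, which encodes cyclin D1 (-0.30, and -1.86 with trametinib). The marker sum of other cell types was 19.6 to 21.9 CPM with palbociclib and the mitochondrial ribosomal share 2.93% to 4.52%.

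Set against each other in SW48, the 2 drugs differed for 3 of the 8 genes, all lower with trametinib, where 41.9% of 12807 genes differed (21% higher and 20.9% lower with trametinib). SKIL had the largest difference of the 3 (log2 trametinib minus palbociclib -1.30, SE 0.103, adjusted p = 4.3e-07 by edgeR's quasi-likelihood test), then SMAD6 (-0.56, SE 0.130, adjusted p = 0.0036). ID3 was slightly lower with trametinib (-0.19, SE 0.059, adjusted p = 0.018), a call lost with all groups in 1 fit (adjusted p = 0.43) and on leaving out trametinib library 2 or 3 or palbociclib library 1 or 2. For ID1 (0.079, 95% interval -0.036 to 0.20), ID2 (0.035, -0.084 to 0.15) and BAMBI (-0.011, -0.13 to 0.11) the intervals were narrow around 0. Those of ID4 (-0.52, -1.07 to 0.027) and SMAD7 (-0.031, -0.26 to 0.20) were wider. Doses and times are not given, so the drugs are compared as used.

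In SW620 with trametinib no gene was called in either set. In set 1, 0 of 13081 genes passed edgeR's quasi-likelihood test, a background of 0%, with 366 genes and none of the 7 at an unadjusted p under 0.05 and 16 genes called by DESeq2. In set 2, 0 of 12919 genes passed (0%), with 2204 genes and 3 of the 7 at an unadjusted p under 0.05 and 177 genes called by DESeq2. The median log2 change of the 7 genes tested was 0.0048 in set 1 and 0.23 in set 2, beside -0.029 and -0.0039 over all genes. DUSP6 did not pass in either set (-0.49, adjusted p = 0.92, and -0.29, adjusted p = 0.49). In set 2 it was at 339, 336 and 299 CPM in controls and at 339.7, 296 and 169 with trametinib, so the first trametinib library stood at the control level. ID2 in set 2 was at 144, 141 and 132 and then 164, 196 and 222 CPM (0.47, SE 0.123, adjusted p = 0.22). ID3 held 17, 13 and 19 counts in controls and 43, 54 and 30 with trametinib (1.23, SE 0.297, adjusted p = 0.22). Neither gene overlapped between groups, and both passed with no filter on low counts (adjusted p = 0.045 and 0.044) and with all groups in 1 fit (0.0098 and 0.026). Without the first trametinib library ID2 changed by 0.59 (adjusted p = 0.020), when 882 genes were called. SMAD6 was at 49.0, 41.5 and 49.2 CPM in controls and 43.6, 37.7 and 28.9 with trametinib (-0.36, adjusted p = 0.27), with overlap.

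In set 1 the third SW620 control, which stood apart, set several values. It held 12.1 CPM of ID2 against 34.2 and 45.1, 1 count of ID3 against 20 and 19, and 44.1 CPM of BAMBI against 20.02 and 15.96. Without it the log2 change went from 0.34 to -0.033 for ID2, from 0.0048 to -0.53 for ID3, from -0.60 to -0.029 for BAMBI and from -0.40 to -0.17 for ID1. None of these was called with or without it.

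With palbociclib, SW620 cells had more ID1 and ID2, and no other of the 7 genes tested passed, where 35% of 13068 genes were called (17.6% higher and 17.4% lower). ID1 went from 92.7, 83.8 and 94.9 to 193, 196 and 187 CPM (1.13, SE 0.081, adjusted p = 5.3e-06) and ID2 from 144, 141 and 132 to 189, 193 and 187 CPM (0.49, SE 0.074, adjusted p = 5.6e-04). Both were tight within groups and did not overlap. ID3 held 25, 26 and 30 counts (0.56, adjusted p = 0.23), SMAD6 was at 51.8, 59.1 and 52.0 CPM (0.27, adjusted p = 0.072) and SKIL at 78.0, 76.4 and 84.3 CPM (0.24, adjusted p = 0.059). Each of these lay above all 3 controls without passing, and SKIL passed without the second control (0.30, adjusted p = 0.040). SMAD7 (0.67, adjusted p = 0.19) and BAMBI (0.028, 95% interval -0.17 to 0.22) overlapped with controls, and ID4, with 0, 1 and 0 counts, was not tested. The median log2 change of the 7 was 0.49 beside 0.0020 over all genes. DUSP6 and CCND1 rose here, by 0.39 and 1.57. The marker sum of other cell types was 5.98 to 12.7 CPM in controls and 6.07 to 145 CPM with palbociclib, and its part in the result was not tested. Against trametinib in the same line 2 of the 7 genes differed, both lower with trametinib, where 32.7% of 13232 genes differed (15.9% higher and 16.7% lower): ID1 (-0.89, SE 0.110, adjusted p = 2.9e-04) and SMAD6 (-0.61, SE 0.140, adjusted p = 0.0082).

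The difference in change between the colorectal lines was tested directly, as SW620 minus SW48 on the log2 scale. For palbociclib that of ID1 was 0.024 (95% interval -0.19 to 0.24). That of ID3 was -1.88 (SE 0.278, adjusted p = 1.5e-04), that of SMAD6 -0.78 (SE 0.170, adjusted p = 0.0032) and that of BAMBI 0.31 (SE 0.096, adjusted p = 0.026), 3 of 8 genes where 25.7% of 14098 genes differed (14.6% higher and 11.2% lower in SW620). The BAMBI call was lost with all groups in 1 fit (adjusted p = 0.33) and without any 1 of 7 of the 12 libraries. For trametinib in set 2, ID1 (-0.95, SE 0.143, adjusted p = 2.6e-04), ID3 (-1.01, SE 0.291, adjusted p = 0.019), SMAD6 (-0.83, SE 0.200, adjusted p = 0.0065) and SKIL (1.27, SE 0.135, adjusted p = 1.4e-05) differed, 4 of 8 where 28.2% of 14027 genes did (15.3% higher and 12.9% lower), and the ID3 call was lost without SW620 control 1 or 3. In set 1, ID1 (-1.13, SE 0.251, adjusted p = 0.022) and SMAD6 (-1.55, SE 0.292, adjusted p = 0.0100) differed, 2 of 8 where 6.73% of 14525 genes did (3.95% higher and 2.78% lower). That background went from 978 genes to 2439 without the third SW620 control and to between 493 and 619 without any 1 of 9 others, namely all 6 of SW48 and the 3 trametinib libraries of SW620. There the ID1 call was lost without any 1 of 5 of 12 libraries, and ID3 (-1.40, adjusted p = 0.24) passed without the third SW620 control (-1.92, adjusted p = 7.0e-04). ID4, at 0 counts in SW620 controls, was not read.

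**Figure D3:**
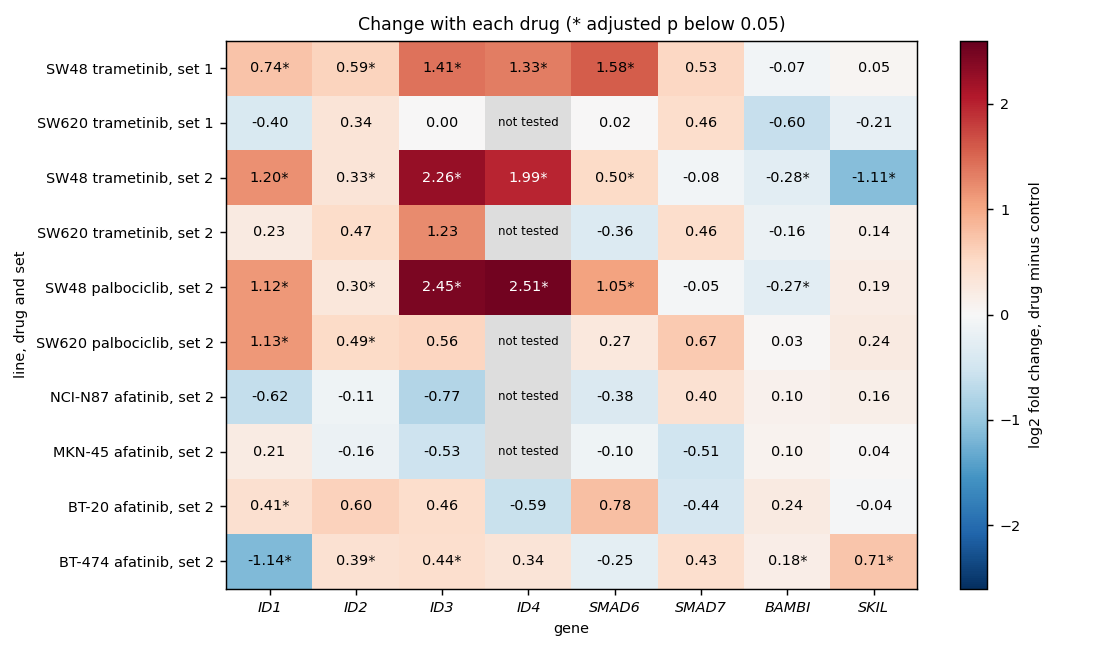
Log2 fold change of each gene in the 10 comparisons between a drug and the controls of the same line, with red for higher and blue for lower with the drug, grey for not tested and an asterisk for an adjusted p below 0.05. The 4 ID genes are red and marked in all 3 SW48 comparisons, ID1 and ID2 are the marked genes of SW620 with palbociclib, and ID1 is blue and marked in BT-474 (-1.14).

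With afatinib, the breast line BT-474 had less ID1 and more ID2, ID3 and SKIL. Of the 8 genes 4 rose and 1 fell, where 42.7% of 12768 genes were called (20.9% higher and 21.8% lower), and their median log2 change was 0.36 beside 0.014 over all genes. ID1 went from 102, 96.1 and 96.5 to 43.4, 43.6 and 45.2 CPM (-1.14, SE 0.073, adjusted p = 1.6e-07). Besides it, the fall of ID1 in NCI-N87 with afatinib passed under 2 alternatives given with that line. ID2 went from 274, 284 and 262 to 339, 324 and 402 CPM (0.39, SE 0.078, adjusted p = 0.0016) and ID3 from 71.1, 64.2 and 71.5 to 99.0, 87.3 and 91.0 CPM (0.44, SE 0.078, adjusted p = 7.9e-04). None of the 3 overlapped, and the ID3 call missed the threshold with all groups in 1 fit (adjusted p = 0.051). ID4 was at 7.71, 3.88 and 6.17 CPM in controls and 8.51, 7.38 and 6.35 with afatinib, overlapping (0.34, adjusted p = 0.30). SKIL went from 22.5, 19.1 and 19.7 to 31.1, 32.4 and 36.0 CPM (0.71, SE 0.104, adjusted p = 1.8e-04), without overlap. BAMBI went from 105, 99.8 and 96.5 to 114, 112 and 112 CPM (0.18, SE 0.064, adjusted p = 0.040), a call lost with no filter, with DESeq2, with all groups in 1 fit and without any 1 of the 6 libraries. SMAD7 (0.43, adjusted p = 0.096) and SMAD6 (-0.25, adjusted p = 0.40) did not pass. DUSP6 (-1.68) and EGR1, an early ERK target (-0.44), fell.

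In BT-20 with afatinib only ID1 of the 8 passed, at the edge of the threshold, where 0.585% of 12810 genes were called (0.273% higher and 0.312% lower). ID1 went from 132, 118 and 124 to 150.1, 155 and 183 CPM (0.41, SE 0.082, adjusted p = 0.0499 by edgeR's quasi-likelihood test). The groups did not overlap, but the call was lost with all groups in 1 fit (adjusted p = 0.68) and without any 1 of 5 of the 6 libraries, the exception being afatinib library 1. The number of genes called went from 75 to 22 without afatinib library 2 and to 25, 7 and 6 without controls 1, 2 and 3. ID2 was at 31.8, 28.6 and 24.8 CPM in controls and 48.9, 35.6 and 42.5 with afatinib (0.60, adjusted p = 0.057), and ID3 at 44.1, 39.1 and 39.3 and then 44.3, 61.9 and 59.3 CPM (0.46, adjusted p = 0.11). Both lay above all controls, and both passed with no filter on low counts (adjusted p = 9.7e-06 and 5.2e-04). SMAD6 had 23, 20 and 21 counts in controls and 23, 28 and 50 with afatinib (0.78, adjusted p = 0.30). SKIL was at 92.6 to 100.1 CPM in controls and 89.4 to 93.8 with afatinib (-0.037, 95% interval -0.19 to 0.11). ID4 (-0.59), SMAD7 (-0.44) and BAMBI (0.24) did not pass either (adjusted p = 0.44, 0.62 and 0.21). The median log2 change of the 8 was 0.32 beside 0.0030 over all genes. EGR1 fell (-2.27), and DUSP6 did not pass (-0.83, adjusted p = 0.14).

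In the stomach lines with afatinib none of the 7 genes tested passed. In NCI-N87, 0 of 12472 genes passed edgeR's quasi-likelihood test (0%), with 1523 genes and none of the 7 at an unadjusted p under 0.05 and 38 genes called by DESeq2. In MKN-45, 0 of 12358 genes passed (0%), with 664 genes and none of the 7 at an unadjusted p under 0.05 and 0 called by DESeq2. In NCI-N87 the libraries of a group differed among themselves. ID1 was at 129.5, 289.6 and 297 CPM in controls and 184, 186 and 92.0 with afatinib, and DUSP6 at 79.3, 119 and 141 and 140.4, 142 and 57.8 CPM. The first control and the third afatinib library were lowest in their groups for both genes, and the other 2 libraries labelled afatinib stood at the control level of DUSP6. ID1 changed by -0.62 (adjusted p = 0.44) and by -0.91 without the first control (adjusted p = 0.028), when 2108 genes were called. It also passed with all groups in 1 fit (adjusted p = 0.031). ID2 (-0.11), ID3 (-0.77), SMAD6 (-0.38), SMAD7 (0.40), BAMBI (0.10) and SKIL (0.16) overlapped between the NCI-N87 groups. In MKN-45 all 7 genes overlapped: ID1 changed by 0.21, ID3 held 32, 10 and 11 counts in controls and 7, 25 and 8 with afatinib, and SKIL was at 114, 88.3 and 111 and then 110.2, 98.7 and 111 CPM (0.039, 95% interval -0.21 to 0.29). DUSP6 did not pass in MKN-45 (0.19, adjusted p = 0.82).

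**Figure D4:**
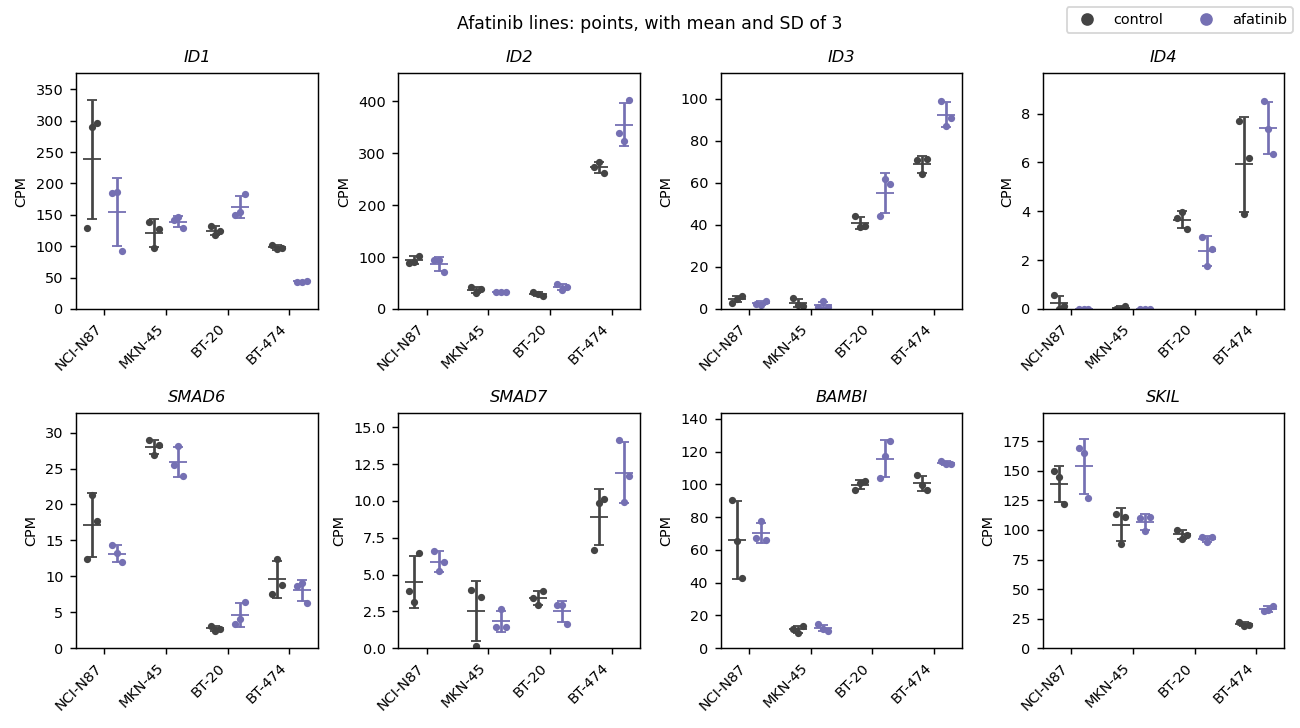
CPM of the 8 genes in the 24 libraries of the 4 lines with and without afatinib, with points for libraries and bars for the mean and SD of 3. In BT-474 ID1 drops to 43.4 to 45.2 CPM and SKIL climbs to 31.1 to 36.0 CPM, and in NCI-N87 the ID1 controls spread from 129.5 to 297 CPM.

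The afatinib changes of the breast lines differed (BT-474 minus BT-20) for ID1 (-1.57, SE 0.115, adjusted p = 4.7e-08) and SKIL (0.73, SE 0.118, adjusted p = 2.5e-04), 2 of 8 genes where 23.8% of 14019 genes differed (10.2% higher and 13.6% lower in BT-474). The difference for ID3 was -0.041 (95% interval -0.35 to 0.27), and that for SMAD6 -1.05 (adjusted p = 0.060), which passed with no filter on low counts (0.032) and with all groups in 1 fit (0.039). NCI-N87 and BT-474, with 1918 and 1151 CPM of ERBB2 in controls, differed (NCI-N87 minus BT-474) for ID3 (-1.26, SE 0.313, adjusted p = 0.016) and SKIL (-0.57, SE 0.183, adjusted p = 0.0493), 2 of 8 where 15.9% of 13946 genes differed (7.82% higher and 8.12% lower). The 2224 genes called became 4142 without the first NCI-N87 control, and 1468, 1456 and 1460 without afatinib library 1, afatinib library 2 or control 3 of BT-474. The SKIL call was lost without any 1 of 11 of the 12 libraries, and that of ID3 without afatinib library 1 or 2 of NCI-N87. Between NCI-N87 and MKN-45, 0 of 7 genes differed by edgeR's quasi-likelihood test, where 0.0145% of 13791 genes did (0.00725% in each direction). None of the 7 had an unadjusted p under 0.05, and DESeq2 called 44 genes. Without the first NCI-N87 control ID1 passed there (-1.10, adjusted p = 0.033), when 1315 genes were called.

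Other genes of the pathway were read from 8 lists with 79 genes. In SW48 with trametinib 14 rose and 17 fell of 56 tested in set 1, where 16% of all genes rose and 19.4% fell. In set 2, 16 rose and 23 fell of 57, where 30.1% of all genes rose and 30.1% fell. With palbociclib 17 rose and 23 fell of 57, where 28.3% rose and 29.2% fell. Of the BMP targets outside the 8, 3 rose and 2 fell of 5 with trametinib in set 1 (median 1.11), 4 rose and 1 fell of 6 in set 2 (median 1.06), and 4 rose and 1 fell of 6 with palbociclib (median 0.97). MSX1, a homeobox factor, rose by 3.17 and 1.47 with trametinib in sets 1 and 2 and by 1.14 with palbociclib, and MSX2, its relative, by 1.11, 0.66 and 0.80. UNC5B, a netrin receptor on the same list, fell in all 3 (-1.91, -0.56 and -1.09).

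Of the TGF-beta targets, 1 rose and 2 fell of 5 in set 1, none rose and 3 fell of 6 in set 2, and 3 rose and 1 fell of 7 with palbociclib. KLF10, an early TGF-beta target, fell in all 3 (-1.27, -2.25 and -0.95). JUNB, an AP-1 subunit, fell with trametinib (-0.29 and -0.57) and rose by 0.39 with palbociclib. CTGF, a matrix-associated protein, fell with trametinib in set 2 (-0.87) and rose by 1.26 with palbociclib, while TAGLN, an actin-binding protein, rose by 1.86 in set 1. Of the intracellular brakes outside the 8, none rose and 3 fell of 9 in set 1, 2 rose and 3 fell of 9 in set 2, and 2 rose and 5 fell of 9 with palbociclib. PMEPA1, a TGF-beta-induced brake on SMAD activation, fell in all 3 (-2.32, -2.82 and -0.88). TGIF1, a SMAD corepressor, fell with trametinib (-1.16 and -1.18), and PPM1A, a SMAD phosphatase, in set 1 (-0.50). The ubiquitin ligase gene NEDD4L rose by 0.80 with trametinib in set 2 and fell with palbociclib (-0.58), and SMURF1, another such ligase, rose by 0.65 with palbociclib.

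The ligands of SW48 did not follow a common course: 4 rose and 4 fell of 10 in set 1, 2 and 4 of 9 in set 2, and 4 and 2 of 8 with palbociclib. BMP4 rose by 1.29 with trametinib in set 1 and fell in set 2 (-1.15). TGFB1 fell with trametinib (-1.66 and -0.88), and TGFB2 fell with trametinib (-1.07 and -1.31) and with palbociclib (-0.50). INHBE, an activin subunit, fell in set 2 with trametinib (-4.69) and palbociclib (-5.13), and BMP7 rose by 0.69 with palbociclib. Of the antagonists outside cells, FSTL3, an activin binder, fell in all 3 (-1.18, -1.24 and -0.37). TWSG1, a BMP binder, rose by 1.32 and 0.88 with trametinib, and CHRD, which encodes the BMP antagonist chordin, by 2.40 in set 2.

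Among the receptors of SW48, 1 rose and 2 fell of 11 in set 1, 4 and 4 of 11 in set 2, and 3 and 4 of 11 with palbociclib. RGMB, a BMP co-receptor, fell in all 3 (-1.67, -1.73 and -1.43). The type II receptor genes ACVR2B (-1.50) and BMPR2 (1.07) went opposite ways in set 1, as did TGFBR2 (-1.29) and the co-receptor gene TGFBR3 (1.06) in set 2. With palbociclib ACVR2B (-1.26) and ACVR1B (-0.98) fell. Of the 6 SMAD transducers, SMAD9 alone was called in set 1 and rose by 0.82. In set 2 with trametinib SMAD9 rose by 1.06, while SMAD3 (-0.49), of the TGF-beta branch, and SMAD5 (-0.23), of the BMP branch, fell. With palbociclib none rose and 4 fell, among them SMAD5 (-0.40), the shared partner SMAD4 (-0.37) and SMAD2 (-0.31). Of the E proteins and other helix-loop-helix factors, 2 rose and 3 fell of 7 in set 1, 1 and 5 of 7 in set 2, and 1 and 5 of 7 with palbociclib. MXD4, a MAX-binding repressor, rose by 1.02 and 1.80 with trametinib and by 2.47 with palbociclib. The repressors BHLHE40 (-1.95 and -2.42 with trametinib), BHLHE41 (-2.92 in set 1) and HES1 (-0.76 in set 2) fell. With palbociclib ASCL2, an intestinal stem cell factor (-2.15), and TCF12, an E protein that ID proteins bind (-0.77), fell.

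In SW620 none of the listed genes was called with trametinib in either set, while with palbociclib 21 rose and 9 fell of 60, where 17.6% of all genes rose and 17.4% fell. There 7 of 10 TGF-beta targets rose and none fell, with a median of 0.67 beside 0.0020 over all genes, and TAGLN rose by 1.79 and JUNB by 1.06. Of the BMP targets MSX2 rose by 0.71 and UNC5B fell (-2.87). The ligand genes BMP4 (1.17) and TGFB1 (0.87) rose and INHBE (-3.31) fell, and SMAD1, a BMP transducer, rose by 0.56. TGFBR2 rose by 0.77, while ACVR2B (-1.34) and ACVR1B (-0.46) fell. The brake genes PMEPA1 (0.52) and TOB1 (0.66) rose and NEDD4L (-0.41) fell. MXD4 (1.20), BHLHE40 (0.90) and HES1 (0.81) rose.

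In BT-474 with afatinib 16 rose and 7 fell of 54, where 2673 of all 12768 genes rose and 2784 fell. The share of listed genes called in either direction was close to the 42.7% of all genes. By direction, more listed genes rose than fell, which all genes did not show. TAGLN (1.68), THBS1, a matrix protein (1.24), and KLF10 (1.003) rose. BMP7 (-1.35) and TGFB3 (-1.28) fell and BMP4 rose by 0.48. SMAD3 (0.35), SMAD4 (0.29) and ACVR1B (0.27) rose and RGMB (-0.39) fell. Of the brakes outside the 8, 4 of 9 rose and none fell, among them TGIF2 (0.73), PMEPA1 (0.36) and TOB1 (0.30). MSX2 (0.54) and MXD4 (0.61) rose, and UNC5B (-1.02) and TCF3, an E protein (-0.28), fell. In BT-20 only ANGPTL4, a secreted TGF-beta target, rose (1.02) and JUNB fell (-0.39) of 59 listed genes tested, where 0.585% of all genes were called, and none of the listed genes was called in the stomach lines.

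The genes closest in pattern were found by Pearson correlation of log2 CPM over the 14 group means of set 2. The points share lines and controls, so the values describe the order of groups and carry no test. The 3 closest genes were PLOD1 (0.93), NF2 (0.89) and KDELR3 (0.89) for ID1, RAB11FIP3 (0.96), SNHG19 (0.95) and TMEM106C (0.94) for ID2 and SNAPC2 (0.95), EPHA1 (0.94) and NEO1 (0.93) for ID3. They were LRP5 (0.98), ADIPOR2 (0.98) and PRDX3 (0.97) for SMAD6 and NDRG4 (0.95), SERTAD1 (0.94) and TUBB2A (0.93) for SMAD7. For BAMBI they were RTN4R (0.95), FOXRED2 (0.94) and DGCR14 (0.94), and for SKIL CHD9 (0.93), PPARG (0.89) and JRKL (0.89). Within the 8, SMAD7 had correlations of 0.88 with ID2, 0.87 with BAMBI and 0.86 with ID3. SKIL had negative ones with ID2 (-0.81) and ID3 (-0.79). The mean level of ID4 was too low for its neighbours to be named.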

How the data were processed

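RNA of 6 cell lines was sequenced from transcript 3′ ends (Lexogen QuantSeq) in 54 libraries. The authors deposited counts of reads per gene, unnormalized, in 2 tables. Per the submitters' processing notes, Trimmomatic, STAR and featureCounts were used with hg38, while versions and the strand setting were not found in those notes or in the labels. One table has 5 lines that name no gene and hold 39.7% to 73.8% of a library's reads, which stayed out of library sizes and tests. The other repeats the 12 libraries of set 1 with identical values, and those copies were not used.

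Samples were grouped by the labels as line, drug and set. For each of 18 comparisons, genes were kept by filterByExpr (minimum count 10, minimum total 15), scaled by TMM over the groups compared and tested with edgeR 4.0.16's quasi-likelihood test in R 4.3.3, with Benjamini-Hochberg adjustment over all genes tested and a threshold of 0.05. Fold changes are log2. Each SE is the absolute log2 change divided by the square root of the F value of its test, and the 95% intervals are built on that SE. Both are therefore approximate. Printed CPM values were computed from the counts with TMM over all libraries of a set. Alternatives were DESeq2 size factors, no filter, DESeq2 1.42.0, a single fit over every group of a set, a block on replicate number and leaving out each library. The tests were tested on simulated data.

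The genes and lists were chosen with earlier results of these data known. The 8 genes are named throughout. Of each pathway list, up to 3 called genes per comparison of a drug with controls are named, largest absolute change first, at a mean log2 CPM of at least 3. Of these, 2 are not reported here, and for differences between drugs or lines none is named. DUSP6, CCND1 and EGR1 are named as readouts, and for each of the 8 genes but ID4 the 3 genes with the most similar pattern. Promoter sequences and motif positions come from RefSeq (GRCh38.p14), in which all 8 genes were found, and no protein sequence was used here.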

Additional observations from a re-analysis of the deposited data

Results flagged for a closer look

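The change with a drug differed between lines, by the test of the difference itself in edgeR's quasi-likelihood fit, for 13 results. The share of all genes tested that differed is given with each comparison. With trametinib in set 1 the change was lower in SW620 than in SW48 for ID1 (-1.13 on the log2 scale, adjusted p = 0.022) and SMAD6 (-1.55, adjusted p = 0.0100). There 6.73% of all genes differed. In set 2 it was lower in SW620 for ID1 (-0.95), ID3 (-1.01) and SMAD6 (-0.83) and higher for SKIL (1.27), where 28.2% of all genes differed. ID1 and SMAD6 thus differed the same way in both sets. In both sets DUSP6 did not pass in SW620 with trametinib, where no gene passed, while it fell in SW48. A pass in 1 line only is no test of a difference between lines, and none is given here for DUSP6.

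With palbociclib the change was lower in SW620 for ID3 (-1.88) and SMAD6 (-0.78) and higher for BAMBI (0.31), where 25.7% of all genes differed. With afatinib it was lower in BT-474 than in BT-20 for ID1 (-1.57) and higher for SKIL (0.73), where 23.8% of all genes differed. It was lower in NCI-N87 than in BT-474 for ID3 (-1.265) and SKIL (-0.57), where 15.9% of all genes differed. As given above, several of these calls were lost without some single libraries. They were BAMBI with palbociclib, ID1 with trametinib in set 1, ID3 with trametinib in set 2, and ID3 and SKIL for NCI-N87 minus BT-474.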

How the results depend on the processing

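Of 44 called values, all kept their direction: 205 of 220 recomputed under the 5 other settings and 300 of 342 recomputed without a library stayed past the threshold, and 15 and 42 did not. Of 89 values not called, 9 passed under at least 1 other setting (16 of 434 recomputed values) and 10 without at least 1 library (11 of 714). The cause was not tested in any case. Fewer of the 8 genes were called with all groups of a set in 1 fit for SW48 with trametinib in set 1 (3) and BT-474 (3), and 1 was then called in NCI-N87. Over all genes 2227, 4053 and 1427 were called in those fits. In SW620 with trametinib in set 2, 2 were called with no filter, 1 with DESeq2 and 2 with all groups, beside 398, 177 and 632 of all genes. In BT-20, 3 were called with no filter, 2 with DESeq2 and 0 with the replicate block, beside 497, 158 and 5 of all genes. For NCI-N87 minus BT-474, 1 was called with no filter and 1 with the replicate block, beside 2246 and 1826 of all genes. Without a library these counts ran over 0 to 1 (SW620, trametinib, set 2), 0 to 1 (NCI-N87), 0 to 2 (BT-20), 1 to 3 (trametinib, SW620 minus SW48, set 1), 0 to 1 (NCI-N87 minus MKN-45) and 0 to 2 (NCI-N87 minus BT-474). The ranges over all genes for these comparisons are given further below.

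No label states that replicate numbers pair samples, and a number is used here to name a library only. In 0 of 12 comparisons did every same-numbered pair correlate above 0.1. With 3 libraries in a group this cannot exclude pairing. With the block the threshold was missed by ID1 in BT-20 (0.41, adjusted p = 0.11), BAMBI in BT-474 (0.18, 0.054) and SKIL for NCI-N87 minus BT-474 (-0.58, 0.053).

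Over all genes, calls moved by over 1.5 times from 4331 to 2227 (SW48, trametinib, set 1) and from 3336 to 1943 (BT-474 minus BT-20) with all groups in 1 fit. In BT-20 they moved from 75 to 497 (no filter), 158 (DESeq2), 12 (all groups) and 5 (replicate block). From 0 they moved to 398, 177 and 632 in SW620 with trametinib in set 2 and to 197, 38 and 1427 in NCI-N87 (no filter, DESeq2, all groups), to 16 (DESeq2) and 2 (all groups) in SW620 in set 1 and to 7 (all groups) in MKN-45. The trametinib difference of set 1 moved from 978 to 1728 (DESeq2), and NCI-N87 minus MKN-45 from 2 to 140, 44, 437 and 0 (no filter, DESeq2, all groups, replicate block). Without a library they ran from 493 to 2439 for the trametinib difference of set 1, 1456 to 4142 for NCI-N87 minus BT-474, 6 to 96 in BT-20, 0 to 882 in SW620 with trametinib in set 2, 0 to 2108 in NCI-N87 and 0 to 1315 for NCI-N87 minus MKN-45.

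Values near 0 changed sign: BAMBI for trametinib minus palbociclib in SW48 with no filter (0.0011), SMAD7 for the trametinib difference of set 1 with the replicate block (0.0085), and ID1 for the palbociclib difference with DESeq2 size factors (-0.0023), DESeq2 (-0.0016) and all groups (-0.019). Leaving out a library turned the sign of these log2 values, none called, over the ranges given. SW620 with trametinib in set 1 gave ID2 -0.033 to 0.73, ID3 -0.53 to 0.44 and SMAD6 -0.030 to 0.067. SW48 with trametinib in set 2 gave SMAD7 -0.14 to 0.034. SW620 with palbociclib gave BAMBI -0.048 to 0.074. NCI-N87 with afatinib gave ID2 -0.19 to 0.00073 and BAMBI -0.13 to 0.38. MKN-45 with afatinib gave ID3 -1.37 to 0.20, BAMBI -0.049 to 0.24 and SKIL -0.074 to 0.11. Trametinib minus palbociclib in SW48 gave SMAD7 -0.092 to 0.081 and BAMBI -0.045 to 0.0095. The same in SW620 gave ID2 -0.13 to 0.11 and SMAD7 -0.46 to 0.068. The trametinib difference between SW620 and SW48 in set 1 gave ID2 -0.62 to 0.16, SMAD7 -0.45 to 0.46 and BAMBI -0.79 to 0.044. The palbociclib difference between those lines gave ID1 -0.075 to 0.065 and SKIL -0.0031 to 0.13. The afatinib difference between NCI-N87 and MKN-45 gave ID2 -0.030 to 0.17, ID3 -0.94 to 0.62 and BAMBI -0.22 to 0.31. That between BT-474 and BT-20 gave ID3 -0.18 to 0.040. That between NCI-N87 and BT-474 gave SMAD6 -0.37 to 0.050, SMAD7 -0.27 to 0.33 and BAMBI -0.32 to 0.21. ID4 (under 60 counts a library) and ID3 outside SW48 and the breast lines are limited by depth.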
